A study of Mus musculus with 24 samples.

Results

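The 34 genes described here are interferon-stimulated genes, that is, genes whose transcription rises when a cell receives an interferon. They were followed in kidneys of mice with Pex5 either intact or targeted for deletion in the renal tubule. They were chosen by name as a list of known interferon-induced transcripts after their levels in these kidneys had been seen, including those of a control female in which such transcripts were high, and both comparisons of cKO with Ctrl. All 34 were among the 55335 genes of the files, and all 34 were among the 16092 genes tested. The Pex5 comparisons of these 34 genes are therefore a description of how they behaved in these kidneys.

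Pex5 encodes the receptor that brings proteins into peroxisomes. RNA of the whole kidney was sequenced from 24 mice, 6 in each of 4 groups. The cKOm (male) and cKOf (female) mice were Pex5lox/lox/Pax8-rtTA/LC1, in which doxycycline (DOX) induces Cre in the renal tubule through the Pax8 promoter, so Pex5 stayed intact in the other kidney cells. The Ctrlm and Ctrlf mice were littermates of the genotype Pex5lox/lox, which carried the floxed alleles without the inducible Cre. DOX was given to all 4 groups over 2 weeks, starting when the mice were 8 weeks old, and kidneys were taken 4 weeks later, at 14 weeks of age. Gene counts summed to 19376152 in the shallowest and 28470831 in the deepest kidney. Levels are given as CPM, the counts scaled to a common library size with edgeR's TMM factors. Sums and means of cell type markers, and the floor of 3 counts, were scaled to library totals without those factors. A floor of 3 counts corresponded to 0.105 CPM in the deepest and 0.155 CPM in the shallowest kidney and covers counting error only.

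Interferons act through receptors that activate JAK kinases and STAT transcription factors. Type I and type III interferons act mainly through interferon-stimulated response elements (ISRE) in the promoters of their target genes, and interferon gamma mainly through gamma-activated sites (GAS). The induced genes include antiviral proteins such as the IFIT, MX and OAS families, which interferons of types I and III raise strongly, and the guanylate-binding proteins (GBP) and immunity-related GTPases (IRG), which attack vacuoles holding pathogens and respond strongly to interferon gamma. In the kidney, tubule, endothelial and resident immune cells can all respond.

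Promoter sequences are shown because they carry the letters of these elements. RefSeq gave a promoter window for 25 of the 34 genes (GRCm38.p6, 250 bases before to 50 after the transcription start), and had none matched for Gbp4, Gbp6, Iigp1, Oas2, Mx1, Rtp4, Parp14, Dhx58 and Zbp1. The ISRE letters, GAAA, any 2 bases and GAAA, occurred, on either strand, in 17 of the 25, and in 3.99% of the 27025 genes with a window. The GAS letters, TTC, any 3 bases and GAA, occurred in 9 of the 25, and in 9.55% of all genes. Among the 10 GBP and IRG genes with a window, 9 held ISRE letters and 6 held GAS letters, against 8 and 3 of the 15 others. A match of letters is a description and not a measured binding site. The 160 bases before the start are given below for 6 genes, 5′ to 3′ on the gene's own strand, with the letters of either element in capitals. Tgtp1, Tgtp2, Igtp and Gbp7 are GTPases, and Ifit3 and Isg15 are antiviral genes. The 6 split more cleanly than the list does. Of the GBP and IRG genes not shown, Gbp5 and Irgm2 held both elements, Gbp2, Gbp3 and Irgm1 ISRE letters alone and Ifi47 neither. Of the antiviral genes not shown, Oas1a held both, Ifit2 GAS letters alone, Ifit1 and Rsad2 ISRE letters alone, and Oasl2, Xaf1 and Ifi44 neither.
Tgtp1 (chr11:48992247-48992406, minus strand): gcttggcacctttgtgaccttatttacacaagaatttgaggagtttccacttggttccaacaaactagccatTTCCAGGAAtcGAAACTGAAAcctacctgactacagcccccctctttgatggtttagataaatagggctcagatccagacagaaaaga
Tgtp2 (chr11:49064213-49064372, minus strand): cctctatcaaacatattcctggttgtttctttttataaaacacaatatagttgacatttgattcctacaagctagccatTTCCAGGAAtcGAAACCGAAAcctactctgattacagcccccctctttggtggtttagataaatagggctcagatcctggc
Igtp (chr11:58199396-58199555, plus strand): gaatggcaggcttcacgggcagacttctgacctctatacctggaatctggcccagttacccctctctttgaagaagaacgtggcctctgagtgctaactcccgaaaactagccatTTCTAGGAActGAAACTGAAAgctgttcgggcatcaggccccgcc
Gbp7 (chr3:142530176-142530335, plus strand): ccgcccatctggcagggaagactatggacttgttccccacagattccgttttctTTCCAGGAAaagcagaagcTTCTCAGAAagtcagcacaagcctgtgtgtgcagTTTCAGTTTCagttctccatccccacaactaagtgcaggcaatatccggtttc
Ifit3 (chr19:34583369-34583528, plus strand): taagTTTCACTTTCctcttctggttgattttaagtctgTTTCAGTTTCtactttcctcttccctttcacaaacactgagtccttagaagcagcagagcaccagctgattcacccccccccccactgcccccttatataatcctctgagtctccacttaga
Isg15 (chr4:156200819-156200978, minus strand): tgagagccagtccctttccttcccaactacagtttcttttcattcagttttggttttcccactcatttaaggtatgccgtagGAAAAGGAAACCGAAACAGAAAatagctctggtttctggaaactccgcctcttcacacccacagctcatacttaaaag

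In Tgtp1, Tgtp2 and Igtp a GAS stood 2 bases ahead of an ISRE. The same arrangement was found in Irgm2 and in 1 gene outside the list, Gm12185, and in no other of the 27025 genes. The pair began 88 bases before the start in Tgtp1, 81 in Tgtp2, 45 in Igtp and 75 in Irgm2. Tgtp1 and Tgtp2 are near copies of each other and lie close together on chromosome 11. Gm12185 shares 223 exonic bases with Tgtp1 on the same strand. The letters shared by these 3 genes are therefore not separate observations. The capitals of Ifit3 and Isg15 are ISRE letters alone, with 3 overlapping matches in Isg15. The arrangement was noticed after the sequences were seen.

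A single kidney set the range of the whole list. In the kidney labelled Ctrlf replicate 1, each of the 34 genes had its highest level among the 24 kidneys, a rank that this kidney held for 6.38% of all genes tested. For 28 of the 34 genes it was at least 2-fold above each of the other 23 kidneys, against 0.826% of all genes. Across the list, its level was between 1.67 and 57.9 times the median of the other 5 Ctrlf kidneys, with a median difference of 2.40 on the log2 scale. The list was chosen with this kidney in view, so these counts show its extent and support nothing further.

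**Figure D1:**
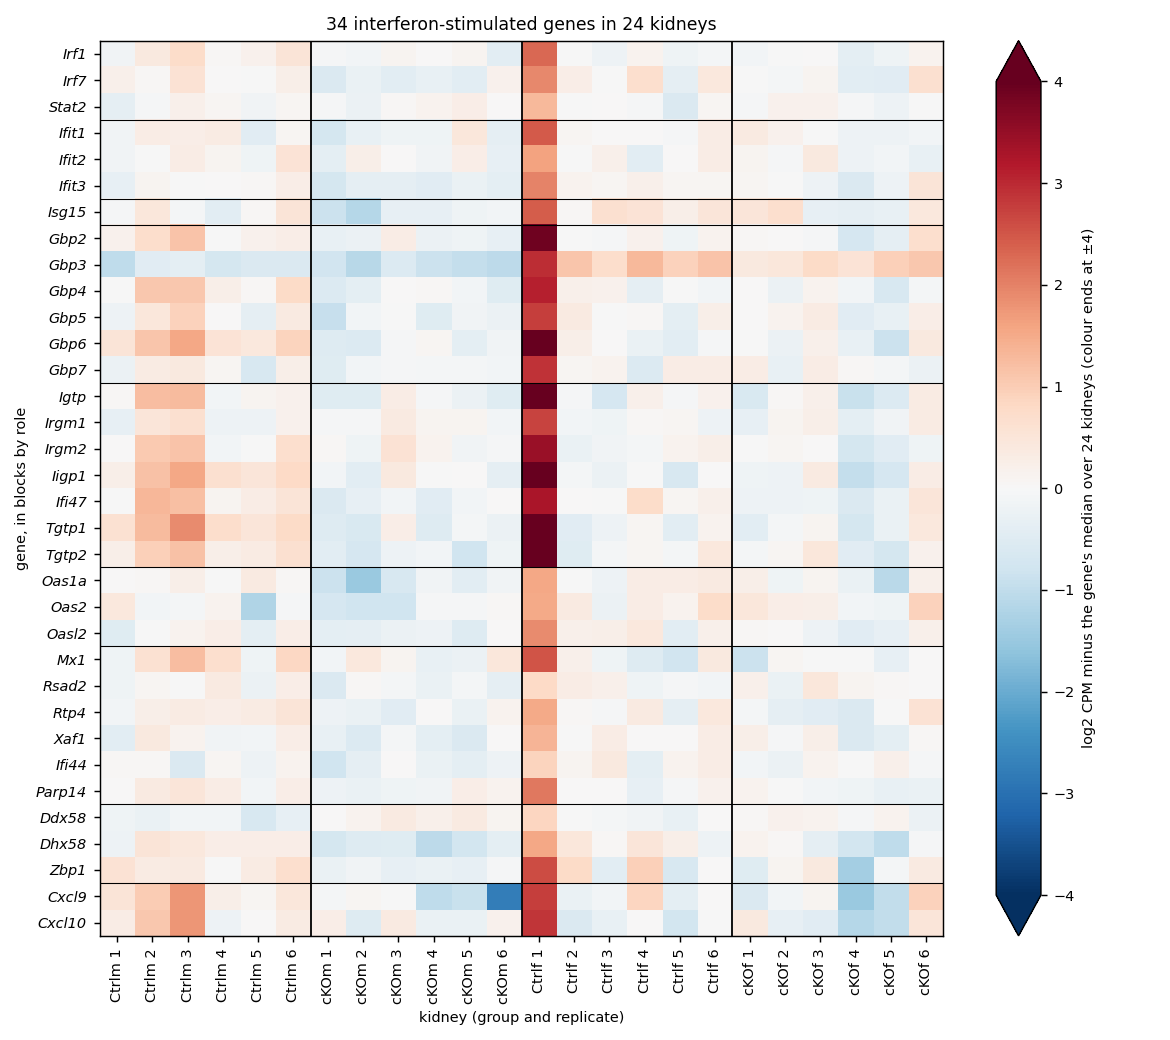
Log2 CPM of each of the 34 genes (vertical axis, in blocks by role) in each of the 24 kidneys (horizontal axis), as the difference from the gene's median over the 24 kidneys, with colours ending at 4 on the log2 scale. The column of Ctrlf replicate 1 is the highest for all 34 genes, and Ctrlm replicates 2 and 3 are high for several GBP and IRG genes.

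The heat map of the 34 genes shows the remaining kidneys closer together. A score per kidney, the median over the 34 genes of the level in SDs from the gene's mean over 24 kidneys, was 3.79 in Ctrlf replicate 1. The score ranged from -0.25 to 0.16 in the other 5 Ctrlf kidneys, from -0.81 to 0.13 in cKOf, from -0.23 to 0.81 in Ctrlm and from -0.70 to -0.21 in cKOm. After Ctrlf replicate 1, the highest kidney was therefore Ctrlm replicate 3. The median over the genes of the SD of log2 CPM within a group was 0.34 in Ctrlm, 0.26 in cKOm and 0.35 in cKOf. It was 0.98 in Ctrlf with and 0.27 without replicate 1, while the median over all genes tested was 0.25 in Ctrlf. The genes also rose and fell together, with a median pairwise Pearson r of 0.74 over the 561 pairs in 24 kidneys. This r was 0.40 over the 23 kidneys without Ctrlf replicate 1 and 0.57 over the 12 male kidneys, as a description, since kidneys of different groups share their group's level.

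The paper found PEX5 protein almost gone in kidneys of cKOm but still present, at a lower level, in cKOf. It also found some full-length Pex5 mRNA in cKOf and proposes that excision was incomplete there. In the counts used here, Pex5 was counted over the whole gene and in all cells. Its level was 49.1 to 62.8 CPM in Ctrlm and 41.8 to 47.3 CPM in cKOm, without overlap. In females it was 43.0 to 61.7 CPM in Ctrlf and 38.0 to 48.5 CPM in cKOf, so the groups overlapped. Ctrlf replicate 1 had the lowest Ctrlf value, 43.0 CPM, and the next values, 45.7 and 46.1 CPM, also lay within the cKOf range, so Pex5 could not check the female labels. Among 121 genes that differed between cKOf and Ctrlf in a fit without Ctrlf replicate 1, none of them an interferon gene of either list, that kidney was nearer to the other Ctrlf mean for 85.

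The distance of Ctrlf replicate 1 from the other Ctrlf kidneys differed by role, as the plot of this distance shows. The IRG genes stood highest, with a median of 17.4-fold over 7 genes and a range of 6.98-fold to 57.9-fold. The GBP genes had a median of 7.78-fold over 6 genes, and both chemokines lay near them at 7.63-fold and 9.19-fold. The 3 IFIT genes were 2.97-fold to 5.46-fold higher, the 3 genes of the 2-5A synthetase family 2.34-fold to 3.20-fold higher, and the 6 other antiviral effectors 1.67-fold to 6.71-fold higher. The difference between roles was not tested, since all these values come from 1 kidney.

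**Figure D2:**
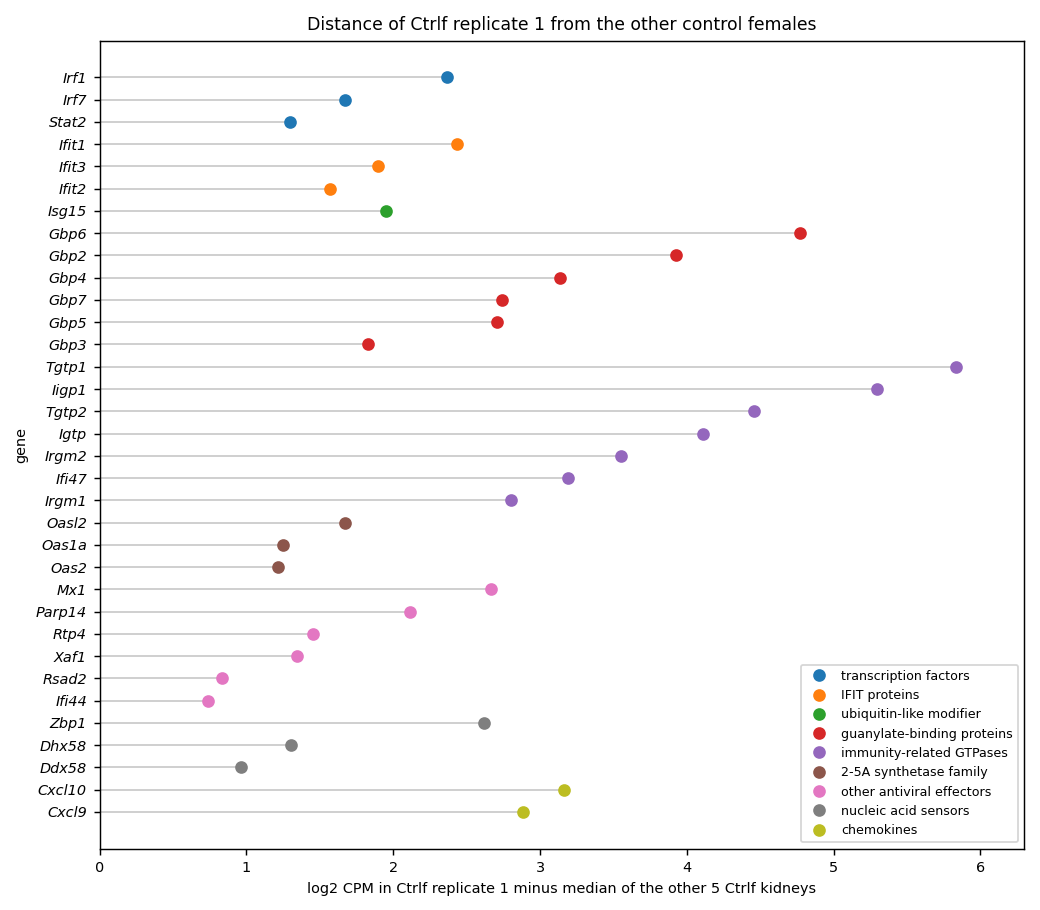
Log2 CPM in Ctrlf replicate 1 minus the median log2 CPM of the other 5 Ctrlf kidneys (horizontal axis) for each gene (vertical axis), coloured by role. The IRG and GBP genes reach the largest distances, up to 5.83 for Tgtp1, and the smallest distance is 0.74 for Ifi44.

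Tgtp1 (chr11:48985327-48994172, minus strand, GRCm38), an immunity-related GTPase, showed the widest range. It was at 331 CPM in Ctrlf replicate 1 and between 4.82 and 7.32 CPM in the other 5 Ctrlf kidneys. In cKOf the lowest, median and highest values were 3.98, 5.86 and 8.97 CPM. The cKOf kidneys therefore spanned the range of the other Ctrlf kidneys. The log2 fold change of -3.29 ± 0.83 (SE, 6 against 6) became 0.05 ± 0.24 without Ctrlf replicate 1. By limma-voom, which averages log values, the female value with all kidneys was -0.87. In males the values were 9.18, 10.996 and 24.7 CPM in Ctrlm and 4.26, 5.08 and 7.99 CPM in cKOm. The male groups did not overlap, and the log2 fold change was -1.31 ± 0.81 in the fit of all 24 kidneys and -1.30 ± 0.23 without Ctrlf replicate 1. The size of the male difference was the same to the first decimal, while its error fell, since 1 model takes its error from all 4 groups.

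Tgtp2 (chr11:49057194-49064206, minus strand), its near copy, was at 148 CPM in Ctrlf replicate 1 and 4.90 to 9.36 CPM in the other Ctrlf kidneys. Male values were 8.18, 9.90 and 15.9 CPM in Ctrlm and 3.93, 5.57 and 6.45 CPM in cKOm, again without overlap. Of the 50-base stretches of Tgtp1 and Tgtp2 transcripts, 81.2% and 86.6% also occur in another gene, so how reads were split between the pair is uncertain.

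Iigp1, a GTPase that acts on pathogen vacuoles, reached the highest level of the list. It was at 1086 CPM in Ctrlf replicate 1 and between 18.7 and 29.5 CPM in the other Ctrlf kidneys. The cKOf values were 14.98, 25.7 and 37.9 CPM, spanning those other Ctrlf kidneys. In males the values were 34.3, 48.3 and 86.2 CPM in Ctrlm and 21.9, 28.4 and 38.2 CPM in cKOm. The male groups overlapped at their edges, and the log2 fold change was -0.94 ± 0.72 with and -0.94 ± 0.21 without Ctrlf replicate 1.

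Igtp (chr11:58199556-58207591, plus strand), another member of the family, was at 209 CPM in Ctrlf replicate 1 and 7.69 to 14.1 CPM in the other Ctrlf kidneys. In Ctrlm, 2 of 6 kidneys, replicates 2 and 3, stood at 29.1 and 30.03 CPM and the other 4 between 11.5 and 13.8 CPM. The cKOm values were 8.75, 9.61 and 15.2 CPM, so the groups overlapped. Igtp shares 162 exonic bases with Irgm2 on the same strand. Of the other IRG genes, Irgm1, Irgm2 and Ifi47 were at 329, 273 and 38.7 CPM in Ctrlf replicate 1, which was 6.98-fold, 11.8-fold and 9.32-fold above the median of the other Ctrlf kidneys. Irgm1, the most abundant of these 3 elsewhere, had the smallest male difference of the family, a log2 fold change of -0.07 ± 0.15 without Ctrlf replicate 1.

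Among the GBP genes, Gbp6 (chr5:105270702-105293698, minus strand) had the widest range. It was at 133 CPM in Ctrlf replicate 1 and 3.74 to 5.97 CPM in the other Ctrlf kidneys, and cKOf kidneys held 2.71, 4.61 and 6.60 CPM. The male values were 6.73, 8.35 and 14.8 CPM in Ctrlm and 3.44, 4.21 and 5.33 CPM in cKOm. The male groups did not overlap, with a log2 fold change of -1.15 ± 0.20 without Ctrlf replicate 1, while the female value without that kidney was 0.00 ± 0.21. Reads of Gbp6 are uncertain, since 70.7% of its 50-base stretches also occur in another gene, mostly Gm43302.

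Gbp3 (chr3:142560026-142573209, plus strand) was higher in every female kidney than in every male kidney. Its Ctrlf values, 42.0 to 63.0 CPM without replicate 1, lay above every male value, and the cKOf values were 33.8, 40.6 and 54.5 CPM. In males it was at 12.7, 17.1 and 19.5 CPM in Ctrlm and 11.9, 13.6 and 17.6 CPM in cKOm. The female log2 fold change was -0.87 ± 0.26 with and -0.33 ± 0.13 without Ctrlf replicate 1, where it was at 199 CPM. Gbp2 was at 239.9 CPM in Ctrlf replicate 1, 15.3-fold above the median of the other Ctrlf kidneys, and Gbp4, Gbp5 and Gbp7 were 8.84-fold, 6.61-fold and 6.72-fold above it.

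**Figure D3:**
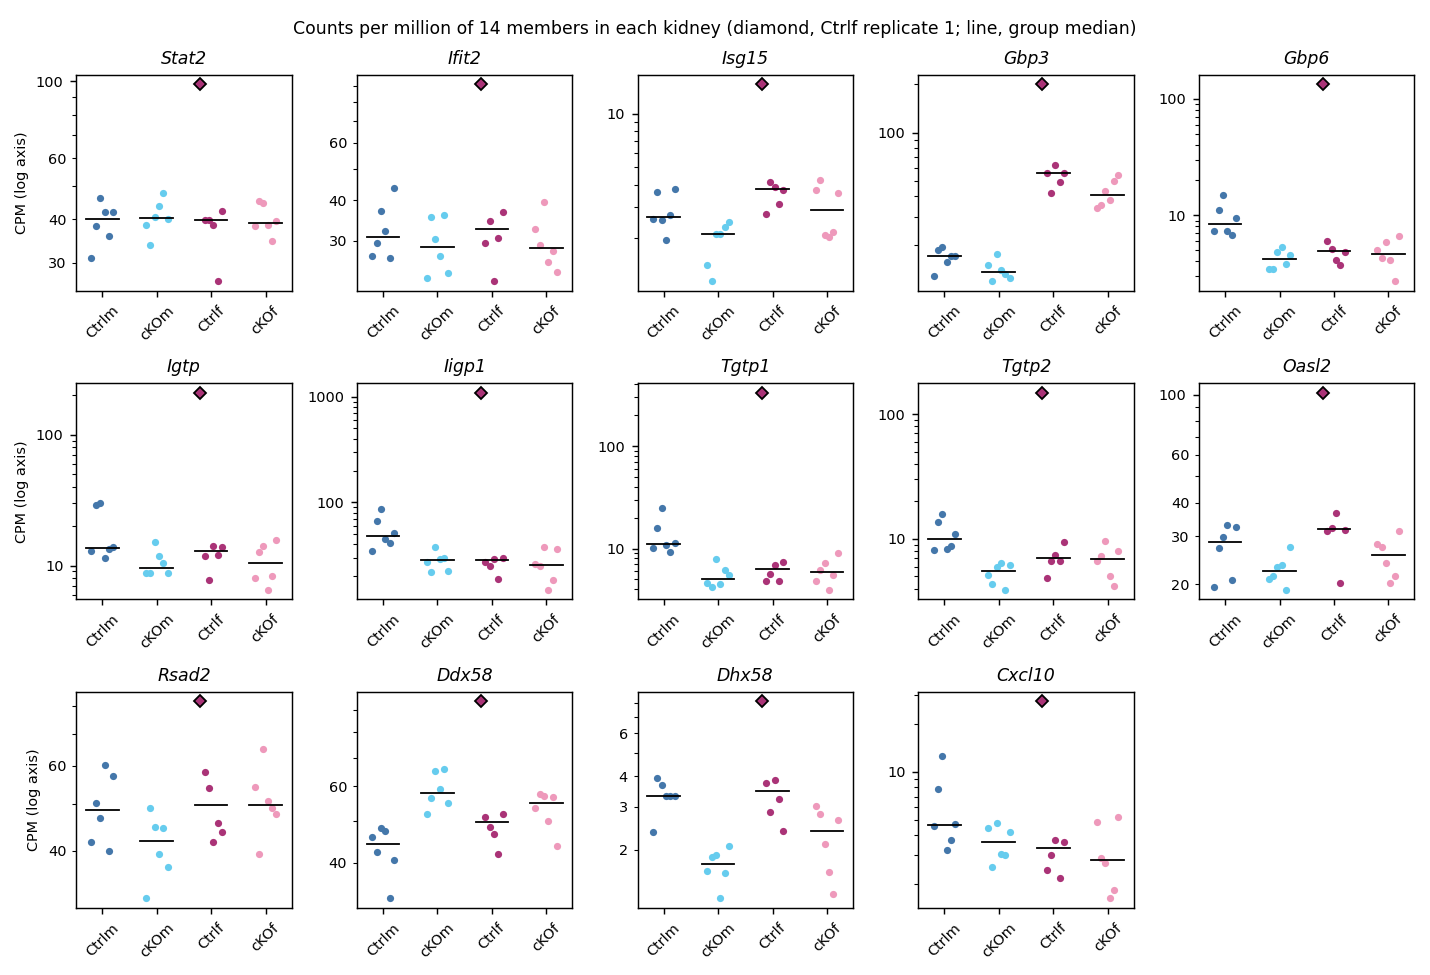
CPM on log axes of 14 genes in each kidney (points), with the median of each group of 6 as a line and Ctrlf replicate 1 as a diamond. The diamond is above all other kidneys for every gene, while the other 5 Ctrlf kidneys overlap the cKOf kidneys.

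The plot of these levels includes the antiviral genes, which moved less. Ifit2, which binds viral RNA and blocks its translation, was at 90.7 CPM in Ctrlf replicate 1 and 22.5 to 36.7 CPM in the other Ctrlf kidneys. The cKOf values were 24.1, 28.5 and 39.6 CPM, and the male values 26.6, 30.7 and 43.6 CPM in Ctrlm and 23.01, 28.6 and 35.9 CPM in cKOm. Apart from Ctrlf replicate 1, all groups overlapped. Ifit3, of the same family, was at 24.2, 30.9 and 36.3 CPM in Ctrlm and 18.6, 23.5 and 25.1 CPM in cKOm, and 51.2% of its 50-base stretches occur in its copy Ifit3b. Isg15, a ubiquitin-like protein that is attached to other proteins, was low, at 14.7 CPM in Ctrlf replicate 1 and 2.74 to 4.16 CPM in the other Ctrlf kidneys. It was at 1.95, 2.64 and 3.80 CPM in Ctrlm, 1.15, 2.11 and 2.46 CPM in cKOm and 2.04, 2.88 and 4.25 CPM in cKOf, with overlap in both sexes.

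Oasl2, a relative of the enzymes that make 2-5A to activate RNase L, was at 102 CPM in Ctrlf replicate 1 and 20.2 to 36.6 CPM in the other Ctrlf kidneys. It was at 19.5, 28.5 and 33.0 CPM in Ctrlm, 19.1, 22.3 and 27.5 CPM in cKOm and 20.1, 25.7 and 31.4 CPM in cKOf, and the groups overlapped. Oas1a, an enzyme of that family, was without overlap between the male groups, at 2.97 to 3.91 CPM in Ctrlm and 1.00 to 2.74 CPM in cKOm, although 57.6% of its 50-base stretches also occur in Oas1g. Rsad2, the antiviral enzyme viperin, was among the genes least raised in Ctrlf replicate 1, at 81.6 CPM against 41.7 to 58.4 CPM. It was at 40.0, 48.6 and 60.1 CPM in Ctrlm, 31.9, 42.0 and 49.1 CPM in cKOm and 39.3, 49.9 and 65.1 CPM in cKOf. Scaled to exon length over the 23 other kidneys, Rsad2 was at 10.96 and Ifit3 at 16.6 CPM per kilobase, the highest levels of the list, and Mx1 at 0.43 the lowest.

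For each of the remaining antiviral genes, Ctrlf replicate 1 was again the highest kidney. Ifit1 was at 43.8 CPM in Ctrlf replicate 1 and 7.64 to 9.79 CPM in the other Ctrlf kidneys, and Oas2 at 12.6 CPM and 3.67 to 7.19 CPM. Mx1, a GTPase that blocks viruses in the nucleus, was at 8.77 CPM and 0.831 to 1.95 CPM. Parp14, an ADP-ribosyltransferase, was at 147 CPM and 26.8 to 38.0 CPM. Rtp4, Xaf1 and Ifi44 were 2.75-fold, 2.56-fold and 1.67-fold above the median of the other Ctrlf kidneys. In males the log2 fold changes of these 7 genes lay between -0.51 and -0.25, and Ctrlm and cKOm overlapped for each.

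The RNA sensors Dhx58 and Ddx58 differed in opposite directions in males. Dhx58 (chr11:100694884-100704271, minus strand), which encodes the RNA sensor LGP2, was at 2.38, 3.34 and 3.92 CPM in Ctrlm and 1.27, 1.76 and 2.07 CPM in cKOm. No cKOm kidney reached the lowest Ctrlm kidney, and the log2 fold change was -0.95 ± 0.25. In females it was at 8.10 CPM in Ctrlf replicate 1, 2.38 to 3.88 CPM in the other Ctrlf kidneys and 1.32, 2.39 and 3.02 CPM in cKOf, with overlap and a log2 fold change of -0.51 ± 0.21 without Ctrlf replicate 1. This was the most negative female value of the list in that fit.

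Ddx58 (chr4:40203773-40239828, minus strand), which encodes the sensor RIG-I, was at 33.1, 44.1 and 48.2 CPM in Ctrlm and 52.0, 57.9 and 65.8 CPM in cKOm. Every cKOm kidney was above every Ctrlm kidney, with a log2 fold change of 0.46 ± 0.14 in all 24 kidneys and 0.46 ± 0.09 without Ctrlf replicate 1. In females Ddx58 was at 94.4 CPM in Ctrlf replicate 1, 41.8 to 51.8 CPM in the other Ctrlf kidneys and 43.8, 55.1 and 57.7 CPM in cKOf. The female log2 fold change was -0.07 ± 0.14 with and 0.15 ± 0.10 without that kidney. Zbp1, a sensor of nucleic acids in the Z form that can start cell death, was at 3.39 to 5.42 CPM in Ctrlm and 2.68 to 3.28 CPM in cKOm, without overlap.

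Stat2, a part of the complex that binds ISRE, was at 97.9 CPM in Ctrlf replicate 1 and 26.6 to 42.4 CPM in the other Ctrlf kidneys. It was at 31.0, 40.1 and 46.1 CPM in Ctrlm, 33.8, 40.5 and 47.7 CPM in cKOm and 34.7, 39.0 and 45.2 CPM in cKOf, so the male groups nearly coincided. Its male log2 fold change was 0.06 ± 0.11 without Ctrlf replicate 1, one of only 2 positive male values of the list, the other being Ddx58. Irf1 and Irf7, which drive transcription of interferons and of interferon-stimulated genes, were at 115 and 76.1 CPM in Ctrlf replicate 1 against medians of 22.3 and 23.9 CPM in the other Ctrlf kidneys.

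Cxcl10, a chemokine that attracts T cells, was at 27.5 CPM in Ctrlf replicate 1 and 2.17 to 3.75 CPM in the other Ctrlf kidneys. It was at 3.23, 4.63 and 12.6 CPM in Ctrlm, 2.54, 3.63 and 4.77 CPM in cKOm and 1.62, 2.80 and 5.22 CPM in cKOf. The highest Ctrlm value came from replicate 3, and the groups overlapped in both sexes. Cxcl9, a chemokine of the same receptor, was at 2.82, 3.76 and 9.33 CPM in Ctrlm and 0.313, 1.95 and 2.82 CPM in cKOm, a log2 fold change of -1.39 ± 0.41 without Ctrlf replicate 1. This was the most negative male value of the list, at low counts.

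Over the whole list, the fit of all 24 kidneys gave a median log2 fold change over the genes of -0.48 between cKOm and Ctrlm and of -0.86 between cKOf and Ctrlf, where the median over all genes tested was 0.01 and 0.00. Values were negative for 32 of 34 genes in males and 34 of 34 in females, and 7683 and 7963 of the 16092 tested. Without Ctrlf replicate 1 the male median was -0.48 and the female median -0.07, with negative values for 25 of 34 genes in females. The plot of the fold changes shows this shift gene by gene.

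**Figure D4:**
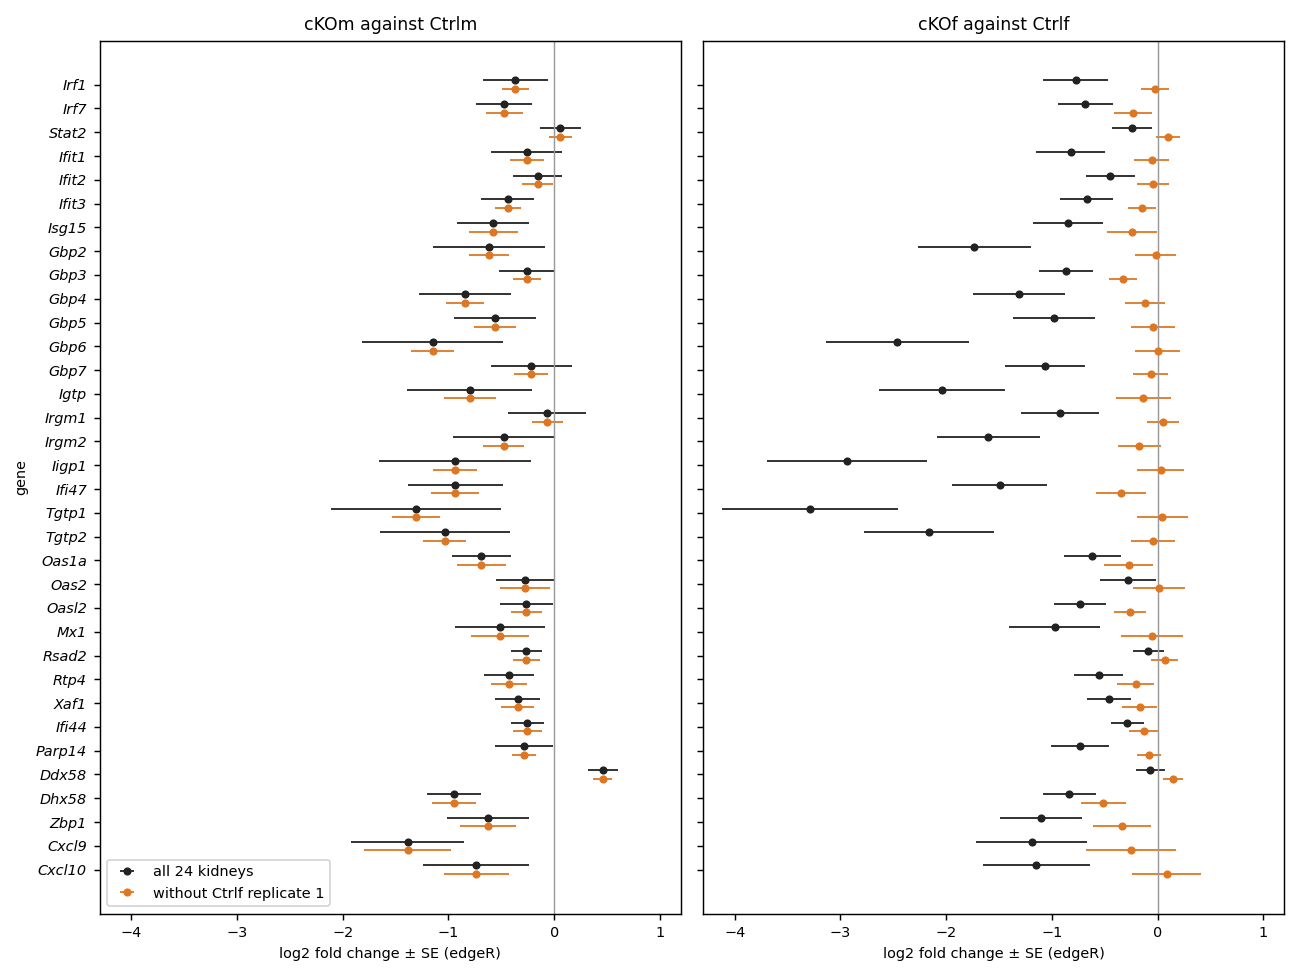
Log2 fold change ± SE of each gene from edgeR for cKOm against Ctrlm (left) and cKOf against Ctrlf (right), with all 24 kidneys (black) and without Ctrlf replicate 1 (orange). In males the values stay in place and the error bars shorten, and in females the orange values lie near 0, between -0.51 and 0.15.

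By edgeR's quasi-likelihood test at an adjusted p of 0.05, 1 of the 34 genes was called in males, Dhx58 (lower), where 9.05% of all genes were called and 4.9% were called lower. That count was 0 without Ctrlm replicate 2 or 3 or cKOm replicate 1, 4 or 5, and 2 without cKOf replicate 6. In females 6 were called, all lower in cKOf, namely Tgtp1, Iigp1, Gbp6, Tgtp2, Igtp and Gbp3, where 0.851% of all genes were called and 0.46% were called lower. That count was 11 to 13 without Ctrlf replicate 3, 4, 5 or 6, and 2 to 3 without cKOf replicate 1, 2, 4 or 5. By limma-voom 0 of the 34 were called in females, and by DESeq2 5. The limma-voom log2 fold changes of Iigp1, Gbp6, Tgtp2 and Igtp were -0.91, -0.78, -0.76 and -0.83, against -2.94, -2.46, -2.17 and -2.04 by edgeR. These contrasts were known when the list was made, so nothing is read from the counts. Without Ctrlf replicate 1 the female count was 0, with 2 genes at an unadjusted p under 0.05 and 0 calls by limma-voom, by DESeq2, with RLE normalization or with each sex fitted alone, where 0.752% of all genes were called. The male count without that kidney was 10, Ddx58 higher and 9 lower, where 9.3% of all genes were called, 5.16% lower and 4.13% higher. Those 9 were Ifit3, Gbp4, Gbp6, Iigp1, Ifi47, Tgtp1, Tgtp2, Dhx58 and Cxcl9. Taking any further kidney out besides Ctrlf replicate 1 left 8 to 12 male calls and 0 female calls. With the sexes fitted apart and all kidneys kept, 12 genes were called in males and 0 in females, with 20 of the female genes at an unadjusted p under 0.05 and 9.52% and 0.677% of all genes called.

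Without overlap between the male groups, 6 genes were lower in cKOm, namely Gbp6, Tgtp1, Tgtp2, Oas1a, Dhx58 and Zbp1, and Ddx58 was higher. Of all genes tested, 3.69% were lower without overlap and 3.69% higher. In females no gene of the list was without overlap. Of all genes tested, 0.292% were lower and 0.267% higher without overlap in females, and 0.429% and 0.385% once Ctrlf replicate 1 was left out, when no gene of the list was without overlap either. The highest male kidney was a Ctrlm kidney for 31 of the 34 genes, and Ctrlm replicate 3 for 17. The share over all genes was not counted for these. With a median pairwise r of 0.57 in males, the 34 genes are not separate observations. The interaction of genotype and sex was called for 0 of the 34 genes in all kidneys, with 1 at an unadjusted p under 0.05 and 0 calls by limma-voom and DESeq2, where 2.31% of all genes were called. Without Ctrlf replicate 1 it was called for 2, Gbp6 and Tgtp1, where 2.1% of all genes were called.

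The wider pathway was followed in 120 further genes of interferon signalling and response, of which 108 were tested. The interferons themselves were hardly seen. Of 9 ligand genes, 8 had 0 reads in all 24 kidneys, and Ifng, which encodes interferon gamma, had 19 reads in all, 6 of them in Ctrlf replicate 1 and at most 3 in any other kidney. The 6 receptor genes were at 0.92 to 1.23 times the median of the other Ctrlf kidneys in Ctrlf replicate 1. The 9 kinases and transcription factors had a median of 1.24-fold and reached 5.52-fold. The 12 genes of antigen processing had a median of 5.14-fold, among them Ciita and Nlrc5, which switch on MHC class II and class I genes, at 10.7-fold and 9.51-fold. B2m, the light chain of MHC class I, was at 3054 CPM in that kidney and at most 769.7 CPM elsewhere. The 62 other interferon-induced genes ranged from 0.61-fold for Ifitm1 to 73.3-fold for Gbp2b, with a median of 2.16-fold.

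**Figure D5:**
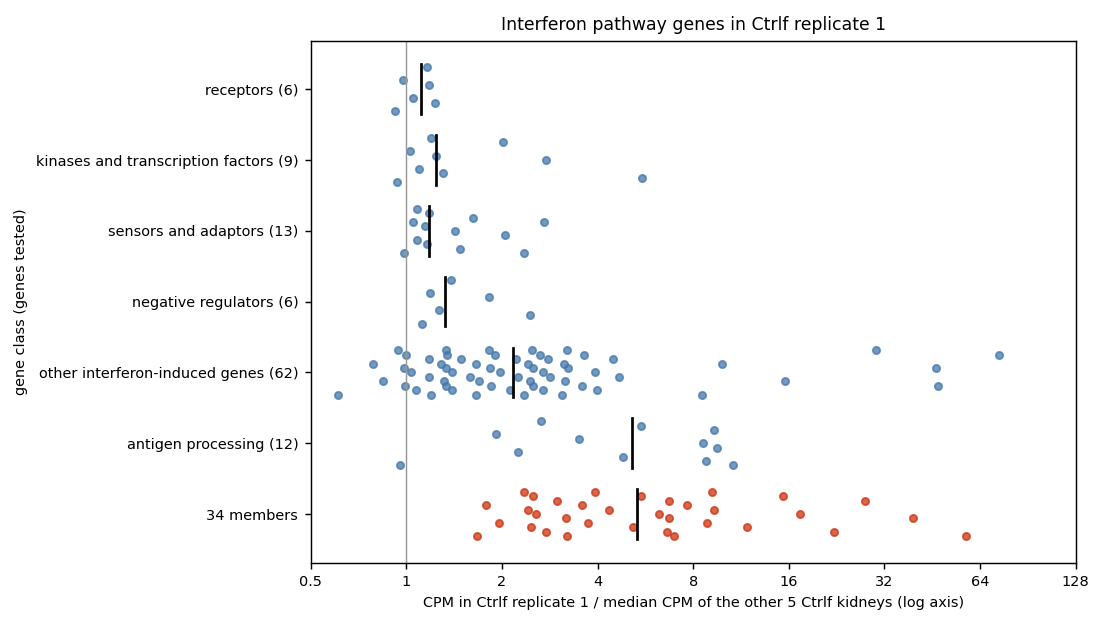
CPM in Ctrlf replicate 1 divided by the median CPM of the other 5 Ctrlf kidneys (horizontal, log axis) for genes of each class of the interferon pathway (blue, with the number tested) and for the 34 genes described here (red), with class medians as black lines. Receptors, kinases and transcription factors, sensors and negative regulators outside the list have medians between 1.11-fold and 1.32-fold. Antigen processing genes reach 5.14-fold at the median.

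The plot of the pathway shows these ratios by class. Ctrlf replicate 1 was the highest kidney for 49 of 62 other interferon-induced and 11 of 12 antigen processing genes. It was so for 2 of 6 receptors, 5 of 9 kinases and transcription factors, 5 of 13 sensors and adaptors and 3 of 6 negative regulators, against 6.38% of all genes. The lists were chosen with earlier results known, so these counts are a description. The sensors and adaptors in that plot had a median of 1.18-fold and reached 2.71-fold. The sensors Ddx58, Dhx58 and Zbp1 are on the list instead, at 1.95-fold, 2.51-fold and 6.26-fold in Ctrlf replicate 1. The transcription factors Irf1, Irf7 and Stat2 are on the list too, at 5.17-fold, 3.19-fold and 2.46-fold. The low medians of sensors and of kinases and transcription factors therefore hold only for genes outside the list. Of the 133 genes of the whole data that were at least 2-fold above all other kidneys in Ctrlf replicate 1, 28 were of the list, 29 were other pathway genes and 76 were in neither. In the other kidneys this number was 0 to 39, with a median of 3.

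In males, 6 of the 108 pathway genes passed edgeR's test in all 24 kidneys, 5 lower and 1 higher, where 9.05% of all genes passed. Irf5, a transcription factor active mainly in immune cells, was at 9.59 to 17.1 CPM in Ctrlm and 4.07 to 5.89 CPM in cKOm, a log2 fold change of -1.41 ± 0.16 (edgeR, adjusted p = 1.18e-06). Ly6e, a membrane protein that limits virus entry, was at 219 to 273 CPM in Ctrlm and 119 to 164 CPM in cKOm, a log2 fold change of -0.85 ± 0.13 (edgeR, adjusted p = 4.98e-05). Neither pair of groups overlapped. Shisa5 and Lgals9 each had a log2 fold change of -0.51 (edgeR, adjusted p = 0.000539 and 0.0108), and Ifitm3, another restriction factor of virus entry, one of -0.57 (adjusted p = 0.0331, with 0.00626 to 0.0954 over the alternatives). Ikbke, a kinase downstream of RNA sensors, rose by 0.62 ± 0.13 on the log2 scale (edgeR, adjusted p = 0.00257).

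In females none of the 108 genes passed edgeR's test in all kidneys, with 32 at an unadjusted p under 0.05, 0 calls by limma-voom and 1 by DESeq2, where 0.851% of all genes passed. Leaving out Ctrlf replicate 2, 3, 4, 5 or 6 or cKOf replicate 6 gave 2 to 6 calls. Without Ctrlf replicate 1 the female count was 0 as well, with 2 at an unadjusted p under 0.05. The male difference of Irf5 and of Ly6e was larger than the female one by the test of the interaction (edgeR, adjusted p = 0.00273 and 0.0249). Without Ctrlf replicate 1 the male count was 12 of 108, 11 lower and 1 higher, where 9.3% of all genes were called, 5.16% lower and 4.13% higher. Tnfsf10, which encodes the death ligand TRAIL, Bst2, Gbp10, Tap1, Nlrc5 and Ciita were then added, each lower in cKOm (edgeR, adjusted p = 0.00621 to 0.0497, and up to 0.682 over the alternatives).

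Summed markers of T cells, NK cells, macrophages and dendritic cells were also highest in Ctrlf replicate 1, while those of neutrophils and of B and plasma cells were not. In Ctrlf replicate 1 the summed level of 10 T cell markers was 34.5 CPM against at most 17.02 CPM in any other kidney, that of 8 NK cell markers 13.5 against 5.33 CPM, that of 10 macrophage markers 341 against 212 CPM and that of 8 dendritic cell markers 77.8 against 37.4 CPM. This kidney was the highest of 24 for 8 of 10 T cell, 5 of 8 NK cell, 8 of 10 macrophage and 5 of 8 dendritic cell markers, and 1 of the latter, Bst2, is itself on the pathway list. The 8 neutrophil markers summed to 0.636 CPM there, with Ly6g, Mmp8, Elane and Mpo at 0 reads. The 9 B and plasma cell markers summed to 54.1 CPM, below the highest other kidney at 60.4 CPM. None of the endothelial, podocyte and proximal tubule markers was highest in that kidney. More immune cells and more RNA per cell cannot be told apart in RNA of whole kidney, and the part of immune cells in the levels of the 34 genes was not tested.

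In males the sums of these lists, scaled to library totals without TMM factors, had lower medians in cKOm. On that scale the groups overlapped, narrowly for NK and dendritic cells, and overlap with TMM factors was not examined. The T cell sum was 7.91 to 13.05 CPM in Ctrlm and 3.84 to 8.84 CPM in cKOm, the NK cell sum 2.69 to 5.33 and 1.64 to 2.86 CPM, the macrophage sum 133 to 212 and 107 to 150.3 CPM, and the dendritic cell sum 23.99 to 37.4 and 18.3 to 24.6 CPM. On the same scale, mean levels were lower in cKOm for 10 of 10 T cell, 7 of 8 NK cell, 8 of 10 macrophage and 8 of 8 dendritic cell markers. Only 2 of these, both macrophage markers, passed edgeR's test in all 24 kidneys, where 9.05% of all genes were called. The error of that fit came from all 4 groups, Ctrlf replicate 1 included. Of these markers only Bst2 was followed in the fit without that kidney, and it was called lower in cKOm there. Other lists went the same way, with 7 of 9 B and plasma cell, 7 of 8 endothelial cell and 9 of 10 hepatocyte markers lower. For neutrophils it was 3 of 8. Of all 16092 genes tested, 7683 had a negative log2 fold change in males, in the fit with TMM factors. In females, in the fit of all kidneys, 1 T cell and 2 dendritic cell markers were called lower in cKOf, where 0.46% of all genes were called lower. That fit holds Ctrlf replicate 1, the highest kidney for 8 of 10 T cell and 5 of 8 dendritic cell markers, so no genotype difference is read from these calls. The proximal tubule sum was 25279.6 to 43456 CPM in Ctrlm and 15957 to 19318 CPM in cKOm, where 6 of 10 markers had a lower mean in cKOm and 5 were called lower. The distal nephron sum lay the other way, at 4323 to 5851 CPM in Ctrlm and 6037 to 6747 CPM in cKOm, with 2 of 8 markers called higher and 1 lower. The injured tubule sum was 667 to 1238 CPM in Ctrlm and 1149 to 1615 CPM in cKOm, with 1 of 7 markers called higher, and 0 of 5 podocyte markers had a lower mean in cKOm. Transcripts of hepatocytes summed to 341 to 1283 CPM in Ctrlm and 356 to 824 CPM in cKOm. The part of these lists in the male differences was not tested.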

How the data were processed

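The authors made RNA-seq libraries with a stranded kit for polyadenylated RNA, and, per the labels and the submitters' processing notes, trimmed reads with cutadapt 1.8, aligned them to GRCm38 with STAR 2.5.3a and counted reads per gene with HTSeq 0.9.1. They deposited 1 table of raw counts per kidney, with 55335 genes, of which 55154 were matched to GENCODE vM21, and 5 lines that name no gene and hold 34.0 to 41.5% of the reads. Those lines were left out.

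The members and lists were chosen with earlier results of these data known. Genes that reached 1 CPM in any kidney, 16092 in all, were fitted with edgeR 4.0.16 in R 4.3.3 (TMM, quasi-likelihood, 1 model of 4 groups). P-values were adjusted by Benjamini-Hochberg over male and female tests together, and over the interaction on its own, with a threshold of 0.05. Standard errors were the log2 fold change divided by the root of its F statistic. A prior count of 2 was used for log2 CPM. Alternatives were limma-voom (limma 3.58.1), DESeq2 1.42.0, RLE normalization, other filters, a separate fit or a separate adjustment for each sex, a block for the replicate number and leaving out each kidney. Fits without Ctrlf replicate 1 combined with another change were added after the data were seen. Tables were made with pandas 2.3.3 and numpy 2.4.6 in Python 3.11.15, and plots with matplotlib 3.10.9.

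Described in full were the most abundant member of each role, the 5 members farthest from the other Ctrlf kidneys in Ctrlf replicate 1 and every member called in either comparison. Named outside the list were called pathway genes, the 10 genes with the largest ratio of Ctrlf replicate 1 to the highest other kidney and the 10 that correlated best with the score, besides single genes chosen after their values were seen (B2m, Ciita, Nlrc5, Ifitm1, Gbp2b). One gene that these rules name is not reported here. On simulated counts of 15696 genes, 200 of them changed by 1 on the log2 scale, 195 (male comparison) and 196 (female) were recovered with 10 and 11 false calls. Replicates of a group differed beyond sampling noise in all 60 pairs, so each kidney counted as 1 sample.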

Additional observations from a re-analysis of the deposited data

Results flagged for a closer look

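Of 56 groups examined (14 genes in 4 groups of 6 kidneys, on log2 CPM), 13 held a kidney whose distance to the nearest of the others, as a share of the group's whole range, was above Dixon's 95% critical value for 6 samples. Chance gives about 1 in 20 such groups, and the 14 genes were chosen partly for this kidney and move together. In 12 of the 13 the kidney was Ctrlf replicate 1, as the highest of its group. The share was 0.902 for Tgtp1, 0.889 for Iigp1, 0.871 for Gbp6, 0.818 for Igtp and 0.812 for Tgtp2. It was 0.789 for Cxcl10, 0.754 for Isg15, 0.739 for Gbp3 and 0.738 for Ddx58, and it was 0.651 for Ifit2, 0.642 for Stat2 and 0.632 for Oasl2. The other was Dhx58 in Ctrlm, where replicate 1 was the lowest, at 2.38 CPM, with a share of 0.671. Among the pathway genes, the difference between cKO and Ctrl differed between the sexes for Irf5, by 1.18 ± 0.22 on the log2 scale, and for Ly6e, by 0.72 ± 0.18 (edgeR interaction, adjusted p = 0.00273 and 0.0249). Both were lower in cKOm than in Ctrlm by more than in females.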

How the results depend on the processing

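The number of genes of the list called between cKOm and Ctrlm, 1 of 34 in all kidneys, was 2 by limma-voom, 2 by DESeq2, 2 with adjustment within each sex and 12 with each sex fitted alone. It ranged from 0 (among others without Ctrlm replicate 2) to 10 (without Ctrlf replicate 1) when 1 kidney was left out. Without Ctrlf replicate 1 it was 10 by limma-voom, 14 by DESeq2, 11 with RLE and 12 with each sex alone. The share of all genes called is not given for the other tools, scalings, filters or single kidneys left out. For those fits, the counts here and in the next paragraph cannot be set against the general rate, and nothing is read from them. Between cKOf and Ctrlf, 6 of 34 became 0 by limma-voom, with each sex alone and with adjustment within each sex, and 0 to 13 with 1 kidney left out. The count was 5 by DESeq2, 6 with RLE, 7 with 1 CPM in at least 6 kidneys and 9 with every gene that had a count. It was 0 in every fit without Ctrlf replicate 1. With the replicate number as a block 0 were called in females (14 at an unadjusted p under 0.05) and 1 in males. Same-numbered kidneys shared a number only: their deviations correlated by -0.199 to 0.118, above 0.1 in 1 of 12 pairs. The interaction count, 0 in all kidneys, was 0 to 2 with 1 kidney left out, and without Ctrlf replicate 1 it was 1 by limma-voom, 3 by DESeq2 and 2 with RLE.

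Of the 108 pathway genes, 6 called in males became 12 with each sex alone, 5 to 12 with 1 kidney left out, and, without Ctrlf replicate 1, 11 by limma-voom, 18 by DESeq2, 14 with RLE, 12 with each sex alone and 6 to 17 with a further kidney left out. In females 0 became 1 by DESeq2, 3 with every gene that had a count, 2 with 1 CPM in at least 6 kidneys, and 0 to 6 with 1 kidney left out. With 1 kidney left out, the log2 fold change of Stat2 ranged from -6.45e-05 to 0.11 in males and from -0.37 to 0.10 in females. In females it ranged from -2.69 to 0.00051 for Gbp6, from -3.18 to 0.029 for Iigp1, from -3.53 to 0.047 for Tgtp1, from -0.17 to 0.067 for Rsad2, from -0.14 to 0.15 for Ddx58 and from -1.34 to 0.087 for Cxcl10, each positive value being the one without Ctrlf replicate 1. The median distance of that kidney moved by less than 0.0905, the SD between the other Ctrlf kidneys, under all 5 alternatives. Apart from the fits without a kidney, whose fewer samples are their construction, the cause of these changes was not tested. At the depth of these kidneys, levels near the floor of 3 counts, such as those of Ifng, cannot be compared between groups.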

Other observations

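Of the 10 genes outside the 34 that stood furthest above the highest of the other 23 kidneys in Ctrlf replicate 1, 4 were guanylate-binding proteins of the pathway list and 6 were on neither list. H2-Eb2, an MHC class II chain, was 18.5-fold above that kidney, with 71 reads against at most 5. BC023105 was 18.3-fold and Btnl2, a butyrophilin-like protein, 17.8-fold above it. Gbp11, Gbp10, Gbp8 and Gbp2b were 10.6-fold, 10.6-fold, 9.47-fold and 8.51-fold above it. Mptx1, F830016B08Rik and Serpina3f were 9.86-fold, 9.09-fold and 8.29-fold above it.

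Among the genes whose log2 CPM followed the score of the 34 genes best over 24 kidneys were Psmb8, Tap1, Ciita, Nlrc5, Cd74, Psmb9, Cd274, H2-DMa and Tapbp, with Pearson r between 0.90 and 0.96. They include subunits of the immunoproteasome, the peptide transporter and its partner, and the ligand PD-L1. Over the 23 kidneys without Ctrlf replicate 1, r ranged from 0.53 for Tapbp to 0.82 for Psmb8 and Ciita. These values describe these kidneys, which share group levels, and carry no test.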
